A study of Mus musculus with 32 samples.

Results

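RNA levels of 46 genes for lineage transcription factors of the basic helix-loop-helix (bHLH) family, their E-protein partners, the Id inhibitors and the Hes and Hey repressors were compared between WT and Eed-deficient mouse embryonic stem cells (mESCs). The genes were taken by symbol, and all 46 were found among the 24028 symbols of each library, each listed a single time. By their known roles, 17 were grouped as neural (the Neurog, Neurod, Atoh, Olig and Nhlh genes, Bhlhe22 and Ptf1a, which also acts in the pancreas), 15 as mesodermal (the Hand, Mesp and Twist genes, the myogenic genes, Tal1, Lyl1, Msgn1, Tcf15 and Tcf21), 3 as E-protein genes, 4 as Id genes and 7 as Hes, Hey and Bhlhe40.

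The series was made to ask how Polycomb affects DNA methylation valleys (DMVs), long stretches of unmethylated DNA around developmental genes, and of its 32 samples the 2 RNA-seq libraries were used here. There was 1 library of WT mESCs and 1 of mESCs with the genotype Eed -/-, a loss of the PRC2 subunit EED, with no treatment named for either. The labels gave the TT2 line for both libraries, and another line for Eed -/- samples of the other assays. Both were grown on gelatin in medium with serum and LIF, and whether either stood for 1 clone was not stated. Eed RNA stood at 63.0 FPKM in WT and at 70.9 in the other library, so its level does not check the label. The study checked the loss of EED by its histone mark, H3K27me3, which an RNA level does not show. Since Eed -/- samples of other assays carry another line, whether that check covers this library is not known. The second library is named as the library labelled Eed-/-. All 15 markers of pluripotent cells looked up were expressed, at 2 FPKM or more in each library, with sums of 1818 and 1981, and of these Zfp42 was past 2-fold higher (131 and 272) and Dppa3 past 2-fold lower (38.4 and 15.5). Since each genotype has 1 library, no test and no p-value is given, and the genotype and the culture cannot be told apart.

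Proteins with a bHLH domain act as dimers. Tissue-restricted members such as Neurod1 or Myod1 pair with the broadly present E proteins and bind the E-box, CANNTG, to switch on genes of a lineage. Id proteins carry the helix-loop-helix but lack the basic region, so they bind E proteins and keep them from DNA. Hes and Hey proteins are repressors that act downstream of Notch, and many of the lineage genes are textbook targets of Polycomb in mESCs.

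Levels are given as deposited FPKM, fragments scaled by transcript length and by library size, a per-length scale on which genes can be compared. Changes are differences in log2(FPKM + 1) after quantile normalization, labelled Eed-/- minus WT, and genes past 2-fold on it were called. The 1 added to each FPKM (the pseudocount) keeps a gene below a normalized FPKM of 1 in both libraries from passing 2-fold. The spacing of low values gave the depth, about 7240000 fragments for WT and 6460000 for the library labelled Eed-/-, and the exact 95% interval of a change that counting error alone allows was computed from the fragments of each gene. These intervals do not hold the spread between cultures. They assume the longest annotated coding transcript and are approximate for genes with several.

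The levels of these genes spanned a wide range. In WT, 14 of the 46 genes had an FPKM of at least 2, and 15 did in the library labelled Eed-/-. Another 14 genes were listed at 0 in both libraries, 2 at 0 in WT alone (Atoh1 and Hand1) and 4 at 0 in the library labelled Eed-/- alone (Atoh8, Nhlh1, Nhlh2 and Myog). A mean normalized FPKM of at least 0.1 was reached by 28 genes. The filter is met more easily by a gene that is high in either library, so the 28 do not stand for all 46.

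**Figure D1:**
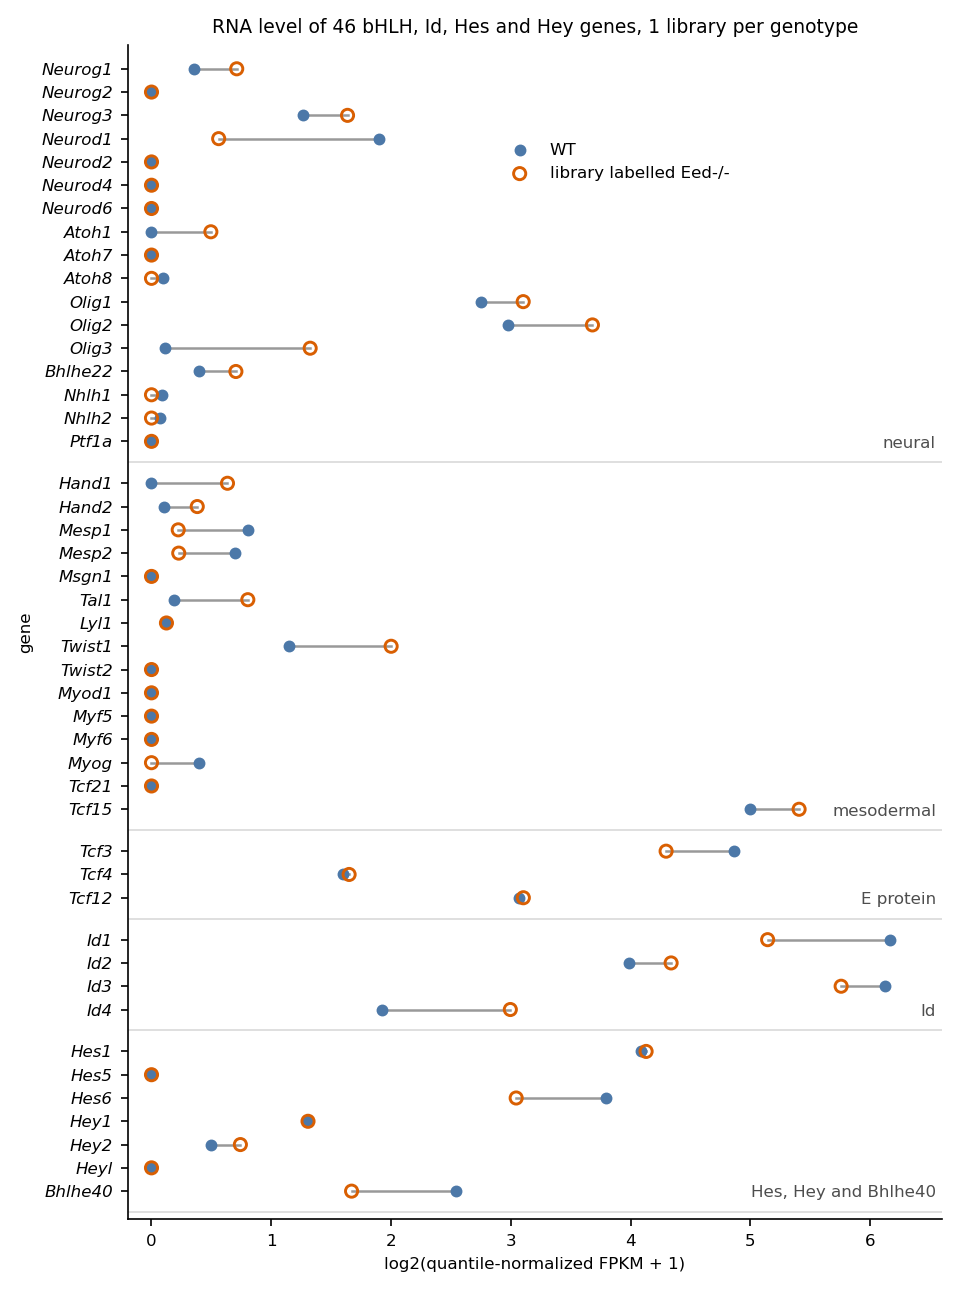
RNA level of each of the 46 genes as log2(quantile-normalized FPKM + 1) in the WT library (filled) and the library labelled Eed-/- (open), by role. Id1, Id3, Tcf15 and Tcf3 were the highest in WT, while 14 genes sat at 0 in both libraries.

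Of the 28 genes, 4 were past 2-fold, beside 7.78% of the 14835 genes tested. In the library labelled Eed-/-, 2 were higher, Olig3 and Id4, beside 3.8% of all genes, and 2 were lower, Neurod1 and Id1, beside 3.98%. Olig3, Atoh1, Hand1 and Hand2 passed the filter through the library labelled Eed-/- alone, and Myog through WT alone. For these genes the direction of the change was set by the filter, and the counts and the median that follow include them. The median change of the 28 genes was 0.27, beside 0.01 over all genes tested. Of the 28, 18 were higher by any amount, beside 50.9% of all genes. The counting interval left out 0 for 9 higher genes (beside 25.1% of 12945 genes with a coding transcript) and 6 lower genes (beside 23.3%). With the FPKM as deposited these were 7 and 6, since the intervals of Tcf15 and Id2 then included 0.

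**Figure D2:**
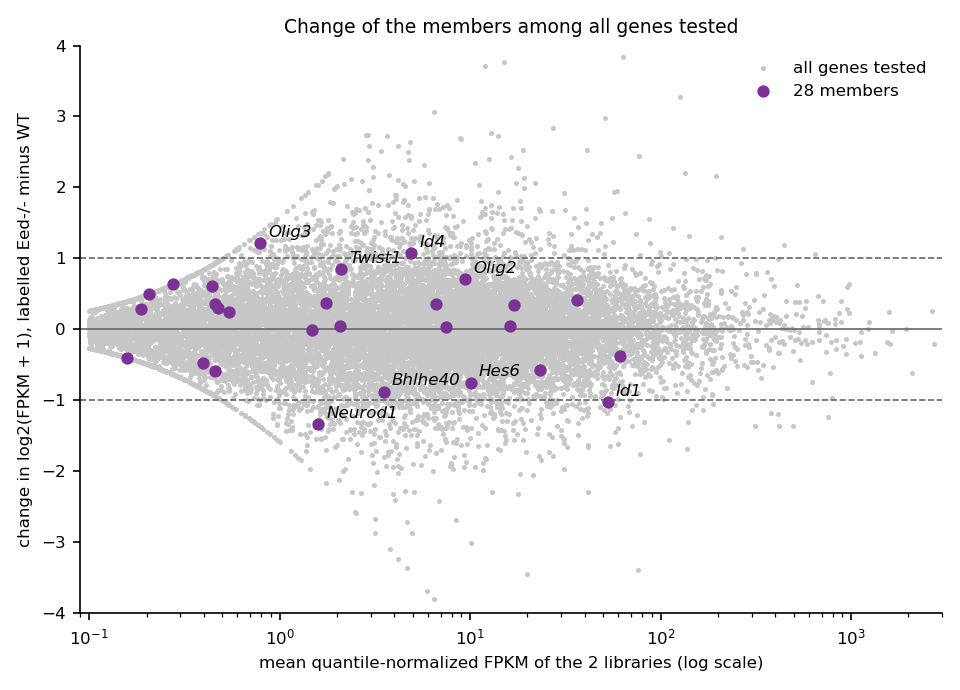
Change in log2(FPKM + 1) against the mean normalized FPKM (log axis) for the genes tested (grey) and the 28 of the 46 genes among them (members, purple), with dashed lines at 2-fold and members past 0.7 named. Olig3, Id4, Neurod1 and Id1 lay outside the dashed lines, and 71 of the 14835 genes lay beyond the axes and were not drawn.

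The Id genes held much of the RNA of the whole list, 169 of a summed FPKM of 301 in WT and 106 of 227 in the other library, and the 2 past 2-fold moved in opposite directions. Id1, the founding inhibitor of bHLH factors and a classical target of BMP signalling, had 76.5 FPKM in the WT library against 32.0 in the one labelled Eed-/-, or 2.39-fold lower (counting interval 2.03 to 2.83). Its change was -1.02 (interval -1.26 to -0.80), just past 2-fold, and it ranked number 555 by fall among all genes tested. The gene lies on the plus strand of chromosome 2 of mm9, from 152561987 to 152563146.

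Id4, an Id protein best known from neural progenitors, went the other way. It had 2.89 FPKM in the WT library against 6.59 in the one labelled Eed-/-, or 2.28-fold higher, with about 31 and 63 fragments and a change of 1.07 (interval 0.55 to 1.57). It lies on the plus strand of chromosome 13 of mm9, from 48356796 to 48359405. The call of Id4 did not hold with the FPKM as deposited, where its change was 0.96, or relative to the median of its chromosome, where it was 0.95.

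Id3, the other highly expressed Id gene of these cells, had 74.2 FPKM in the WT library against 49.0 in the one labelled Eed-/-, and a change of -0.37 (interval -0.56 to -0.18). Id2 had 15.6 and 18.0, and a change of 0.35 (interval 0.01 to 0.71). Neither reached 2-fold, but Id3 was lower by more than counting error, as Id1 was.

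Within the Id genes the shares shifted. Id1 made up 45.2% of their FPKM for WT and 30.3% for the other library, whereas Id4 gave 1.71% and 6.24%. The ratio of Id1 to Id4 in FPKM thus went from 26.5 to 4.85, while Id3 gave 43.9% and 46.4%.

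The 3 genes for E proteins, the partners that Id proteins bind, were expressed in both libraries. Tcf3, which encodes E12 and E47, was the highest, with 30.1 FPKM in the WT library against 17.5 in the one labelled Eed-/-, and a change of -0.57 (interval -0.76 to -0.37). Tcf12 (HEB) had 7.81 and 7.17, and Tcf4 (E2-2) had 2.09 and 2.08. The intervals of Tcf12 and Tcf4 included 0. The sign of their small changes, 0.04 and 0.05, turned with the FPKM as deposited. E-protein genes summed to 40.0 in WT and to 26.8 in the other library, so the ratio of Id to E-protein FPKM was 4.23 and 3.94. Both sums were lower in the second library, and their ratio moved by little.

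**Figure D3:**
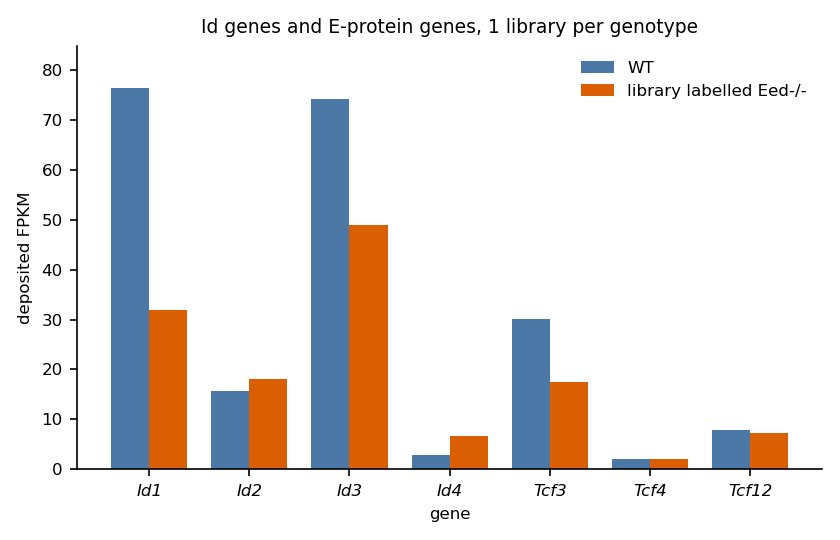
Deposited FPKM (bars from 0) of the 4 Id genes and 3 E-protein genes in WT and the library labelled Eed-/-, with 1 library each and no error bars. In the library labelled Eed-/-, Id1, Id3 and Tcf3 were lower and Id4 was higher.

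The neural genes were mostly at low levels, and the 2 past 2-fold moved in opposite directions. Olig3, a factor of the dorsal neural tube, had 0.0732 FPKM in the WT library against 1.48 in the one labelled Eed-/-, which stand for 1 and 18 fragments. The ratio was 20.2, with a counting interval of 3.19 to 841, and the change was 1.22 (interval 0.65 to 1.38). The gene lies on the plus strand of chromosome 10 of mm9, from 19076366 to 19078412. It stayed below an FPKM of 2 in both libraries. Its normalized level in WT, 0.0784, was under the filter of 0.1, which it passed through the library labelled Eed-/- alone.

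Neurod1, a differentiation factor of neurons and of pancreatic endocrine cells, had 2.81 FPKM in the WT library against 0.469 in the one labelled Eed-/-. These values stand for about 52 and 8 fragments, a level 5.99-fold lower (interval 2.74 to 14.1) and the largest fall of the list, with a change of -1.33 (interval -1.70 to -0.82). In mm9 it spans 79292678 to 79296908 on chromosome 2, minus strand, the chromosome that also carries Id1.

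The promoter windows of the called genes and of Id3, which was lower like Id1, show how different in base composition these starts are. Each window runs from 250 bases before to 50 bases after a RefSeq start on GRCm38.p6, 5′ to 3′ on the gene's strand, with E-boxes (CANNTG, a palindrome read on both strands) in capitals. The table of windows used here had none for Id1.
Id3, chr4:136143572-136143871, plus strand: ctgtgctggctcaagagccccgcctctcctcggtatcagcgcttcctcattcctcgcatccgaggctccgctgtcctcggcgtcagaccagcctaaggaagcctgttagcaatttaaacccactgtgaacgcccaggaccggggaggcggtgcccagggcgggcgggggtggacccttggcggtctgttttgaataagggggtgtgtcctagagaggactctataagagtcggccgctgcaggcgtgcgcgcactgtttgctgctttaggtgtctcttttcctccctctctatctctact
Id4, chr13:48260866-48261165, plus strand: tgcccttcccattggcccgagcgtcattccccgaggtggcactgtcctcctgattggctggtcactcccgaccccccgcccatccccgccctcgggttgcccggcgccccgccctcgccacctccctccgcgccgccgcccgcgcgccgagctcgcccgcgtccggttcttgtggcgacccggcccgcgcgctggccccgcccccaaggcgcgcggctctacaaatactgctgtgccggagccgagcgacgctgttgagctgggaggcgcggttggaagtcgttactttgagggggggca
Olig3, chr10:19356289-19356588, plus strand: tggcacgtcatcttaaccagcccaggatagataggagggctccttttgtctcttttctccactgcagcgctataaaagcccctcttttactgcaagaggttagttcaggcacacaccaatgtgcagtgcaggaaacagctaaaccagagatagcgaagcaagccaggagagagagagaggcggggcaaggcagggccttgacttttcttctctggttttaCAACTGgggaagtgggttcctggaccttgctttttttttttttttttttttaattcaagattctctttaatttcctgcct
Neurod1, chr2:79456587-79456886, minus strand: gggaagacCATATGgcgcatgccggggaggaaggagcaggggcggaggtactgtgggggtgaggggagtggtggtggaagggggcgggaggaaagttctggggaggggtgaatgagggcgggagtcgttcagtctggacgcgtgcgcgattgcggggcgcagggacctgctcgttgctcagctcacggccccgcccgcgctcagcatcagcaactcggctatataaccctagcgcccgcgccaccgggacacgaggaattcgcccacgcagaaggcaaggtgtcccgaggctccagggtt

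The windows of Id4 and Neurod1 held 39 and 26 CG dinucleotides, that of Id3 held 19, and that of Olig3 held 4. Olig3 and Neurod1 each had 1 E-box, CAACTG and CATATG, while Id3 and Id4 had none in these letters. Over the 39 windows of 34 members the median was 17 CG dinucleotides, beside 7 over all 32817 windows of the table. An E-box was present in 69.2% of the members' windows and in 72.3% of all windows, so it did not set them apart. The hexamer TGGGAA, the core bound by the Notch effector RBPJ, was found on either strand in 30.8% and 25.6%. Windows were not found for 12 members, namely Bhlhe22, Bhlhe40, Hand1, Hes1, Hey1, Heyl, Id1, Myf6, Myod1, Olig1, Tcf15 and Tcf4. These matches describe letters only.

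Olig1 and Olig2, oligodendrocyte and motor neuron factors that lie 41091 bases apart on chromosome 16, were the highest of the neural genes. Olig2 had 7.23 FPKM in the WT library against 11.2 in the one labelled Eed-/-, and a change of 0.71 (interval 0.39 to 1.02). Olig1 had 6.04 and 7.16, and its interval, -0.02 to 0.74, included 0. Both were thus already present in WT mESCs, unlike Olig3.

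Neurog3, the factor that starts the endocrine pancreas, had an FPKM of 1.42 and 2.05, and Neurog1, a sensory neuron factor, had 0.279 and 0.626. With 14 and 18 fragments for Neurog3 and 3 and 6 for Neurog1, a difference was not detectable at this depth. The same held for Bhlhe22, a factor of cortical and retinal neurons, with 0.322 and 0.618. Atoh1, needed for hair cells and cerebellar granule cells, was listed at 0 in WT and at 0.405, or 5 fragments, in the library labelled Eed-/-. Atoh8, Nhlh1 and Nhlh2 stood at 1 fragment each in WT and were listed at 0 in the other library. Neurog2, Neurod2, Neurod4, Neurod6, Atoh7 and Ptf1a were listed at 0 in both.

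Of the 15 mesodermal genes 8 passed the filter, and none was past 2-fold. Of the 8, only Twist1 and Tcf15 reached a normalized FPKM of 1 in a library, so the others could not be called. Twist1, a regulator of mesenchyme, came closest, with 1.24 FPKM in the WT library against 2.88 in the one labelled Eed-/-, about 13 and 27 fragments, and a change of 0.85 (interval 0.20 to 1.45). Tal1, needed to specify blood, had 0.137 and 0.730, or about 4 and 19 fragments, and a change of 0.61 (interval 0.24 to 0.84). Its FPKM ratio was 5.32 (interval 1.77 to 21.5). Hand1, a gene of trophoblast giant cells and of the heart, was listed at 0 in WT and at 0.541, or about 6 fragments, in the other library (interval of the change from 0.088 to 0.63). These genes were higher by more than counting error but at levels near or below an FPKM of 2. Hand1 passed the filter through the library labelled Eed-/- alone, so its direction was set by the filter.

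Tcf15, a paraxial mesoderm factor also known from epiblast cells, was the single mesodermal gene at a high level, with 33.1 FPKM in the WT library against 38.7 in the one labelled Eed-/- and a change of 0.41 (interval 0.12 to 0.69). The neighbours Mesp1 and Mesp2, which act in early cardiac and somitic mesoderm and lie 16938 bases apart on chromosome 7, were both lower. Mesp1 had 0.766 and 0.172, and Mesp2 had 0.629 and 0.176, from at most 8 fragments each, and both intervals included 0. Hand2, a heart and limb factor, had 0.0672 and 0.301, or 1 and 4 fragments, and lies on chromosome 8, where the median change of all genes was -0.38.

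The myogenic genes were absent or nearly so. Myod1, Myf5 and Myf6 were listed at 0 in both libraries, and Myog had an FPKM of 0.318, or 3 fragments, in WT and was listed at 0 in the other library (chromosome 1, median change of all genes -0.29). Msgn1, Twist2 and Tcf21 were also listed at 0 in both, and Lyl1 stood at 1 fragment in each. For the 14 genes of the whole list at 0 in both libraries, the level that a count of 0 still allows (3 fragments) had a median of 0.280 FPKM in the WT library and 0.314 in the one labelled Eed-/-, and reached 1.53 and 1.72 for the short Atoh7. A listed 0 can also be a failed estimate.

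**Figure D4:**
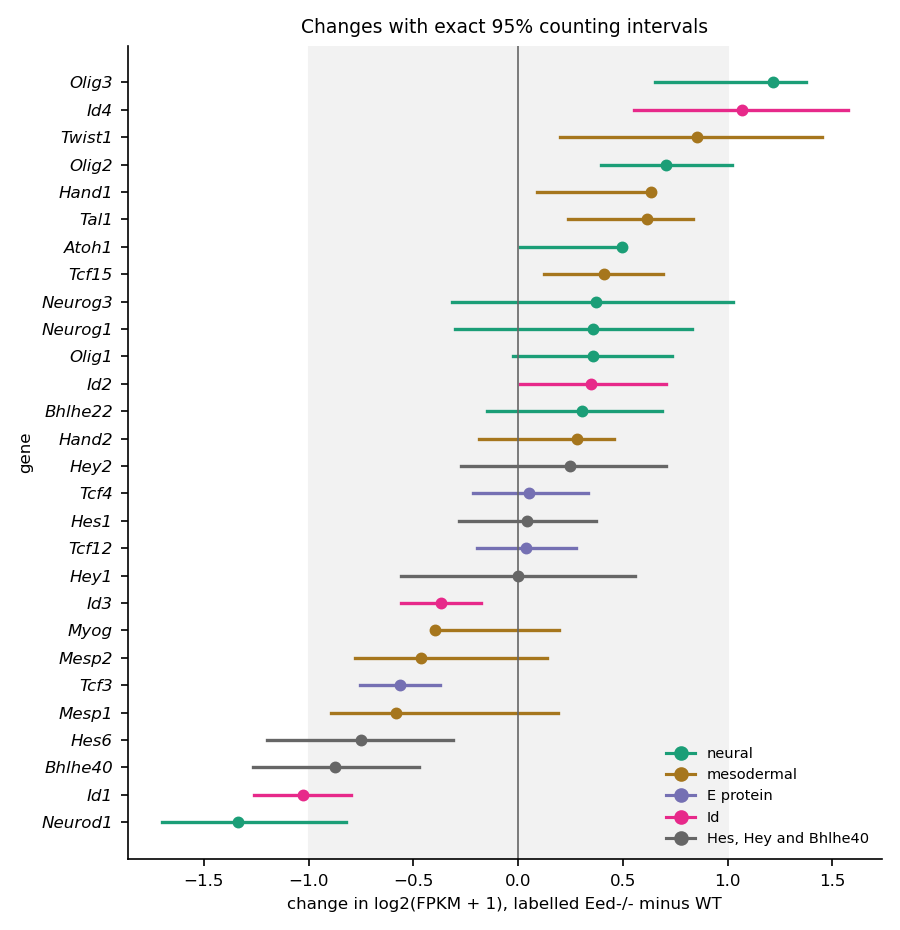
Change in log2(FPKM + 1) of the 28 genes (points) with exact 95% counting intervals (lines), coloured by role, with the range under 2-fold shaded. For Atoh1, Hand1 and Myog, listed at 0 in a library, the interval ends at the point itself. Neurod1, Id1, Bhlhe40, Hes6, Tcf3 and Id3 lay wholly below 0.

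Hes and Hey genes encode repressors, many of them induced by Notch. Hes1, the main member in mESCs, had 16.8 FPKM in the WT library against 15.6 in the one labelled Eed-/-, and a change of 0.04 (interval -0.28 to 0.37), the sign of which turned with the FPKM as deposited. Hes6, which counteracts Hes1 and favours neurogenesis, had 13.6 and 6.83, or 1.99-fold lower (interval 1.42 to 2.83), and a change of -0.75 (interval -1.20 to -0.31). Hes6 lies on chromosome 1 as well, where the 752 genes tested had a median change of -0.29, and relative to that median its change was -0.46. Hey1 had 1.50 and 1.45, and Hey2 had 0.411 and 0.659, and both intervals included 0. Hes5 and Heyl were listed at 0 in both libraries.

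Bhlhe40, a repressor of the circadian and hypoxia responses, had 5.09 FPKM in the WT library against 2.11 in the one labelled Eed-/-. It was 2.41-fold lower (interval 1.66 to 3.56), but its change on the log2(FPKM + 1) scale, -0.87 (interval -1.26 to -0.47), did not reach 2-fold with a pseudocount of 1 and did with 0.1, at -1.11. Of the 7 genes of this group 5 passed the filter, and none was past 2-fold on that scale. Hey2, below an FPKM of 1 in both libraries, could not be. The 2 largest differences, those of Bhlhe40 and Hes6, were both lower by more than counting error.

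Genes at DMVs of mESCs were taken from the list the study made from methylation, without RNA. By symbol, 16 of the 46 genes stand on it, and of the 14 that passed the filter 11 were higher and 3 lower (Id1, Id3 and Bhlhe40), with a median change of 0.35. Among the neural and mesodermal genes, 10 are on the list, of which 8 passed the filter and all had the higher value in the library labelled Eed-/-, and their median change was 0.45, with none past 2-fold. These were Neurog3, Atoh1, Olig1, Olig2, Hand2, Tal1, Twist1 and Tcf15, while Neurog2 and Neurod2 were listed at 0 in both libraries. Of the 8, the intervals of Neurog3, Olig1 and Hand2 included 0, and Atoh1 and Hand2 passed the filter through the library labelled Eed-/- alone. Atoh1, Hand2 and Tal1, below an FPKM of 1 in both libraries, could not pass 2-fold. Of the 22 not on the list 8 passed, 4 of them higher and 4 lower, with a median of -0.05. Among these, the intervals of Neurog1, Bhlhe22, Mesp1, Mesp2 and Myog included 0. Olig3 and Hand1 passed through the library labelled Eed-/- alone and Myog through WT alone. Neurog1, Bhlhe22, Hand1, Mesp1, Mesp2 and Myog, below an FPKM of 1 in both libraries, could not pass 2-fold. Over all genes on the list, 50.7% of the 1586 that passed were higher. With 8 genes in each group and no replicate, the values are set side by side without a test.

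In the Notch pathway, which acts through Hes and Hey genes, 34 of 37 listed genes passed the filter, with a median change of -0.12. Of the 34, 3 were past 2-fold upwards, beside 3.8% of all genes, and 3 downwards, beside 3.98%. Higher were Adam10, a protease that cleaves Notch (FPKM 2.42 and 9.32, change 1.69), the receptor Notch4 (0.884 and 3.84, change 1.42) and Rbpj, the DNA-binding effector (8.86 and 19.1, change 1.19). Lower were the ligand Jag2 (8.83 and 2.04, change -1.59), Dtx3 (5.71 and 1.76, change -1.19) and Lfng, a glycosyltransferase that modifies Notch receptors (3.09 and 0.736, change -1.18). These named genes thus differed both ways, while Hes1 did not differ beyond counting error.

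Of the BMP and SMAD pathway, which drives Id genes in mESCs, 20 of 22 genes passed the filter, with a median change near 0 (-0.002). Of the 20, 0 were at least 2-fold higher, beside 3.8% of all genes, and 1 was at least 2-fold lower, beside 3.98%. The gene was Smad1, which carries the BMP signal to the nucleus, with 8.26 FPKM in the WT library against 2.70 in the one labelled Eed-/- and a change of -1.22. It lies on chromosome 8, where the 702 genes tested had a median change of -0.38, and relative to that median its change was -0.83, short of 2-fold. The ligand Bmp4 had 15.3 and 16.8, and its receptor Bmpr1a had 11.6 and 11.0. Smad5 had 4.05 and 3.68, and a change of -0.02 (interval -0.28 to 0.22). The inhibitory SMAD genes that BMP induces, Smad6 and Smad7, had 3.77 and 2.72, and 10.7 and 8.73, and the intervals of both changes included 0. Whether the level of Smad1 has a part in that of Id1 was not tested.

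**Figure D5:**
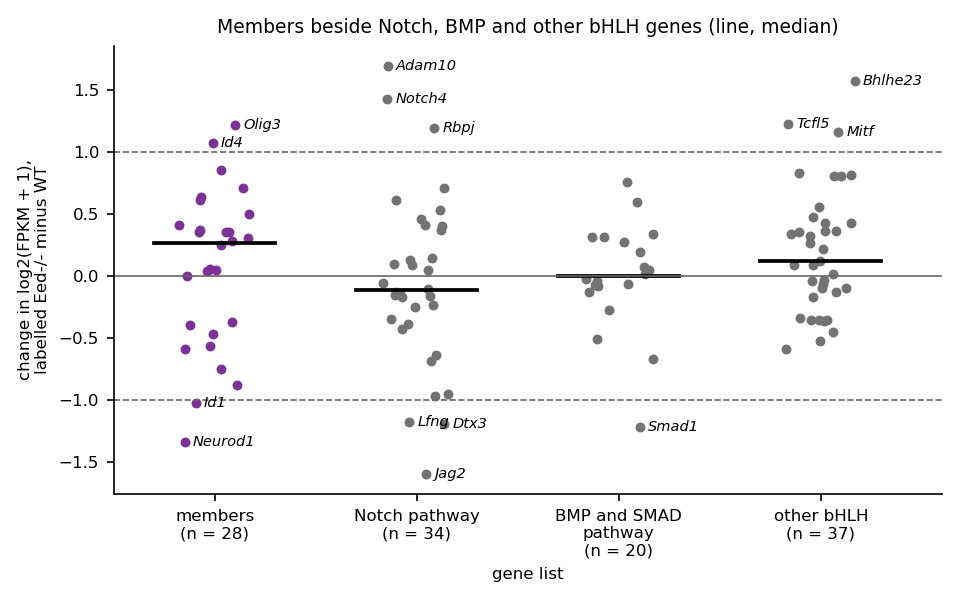
Change in log2(FPKM + 1) of single genes (points) in 4 lists, with the median (line) and dashed lines at 2-fold. Members are the 28 of the 46 genes that passed the filter. They had a median of 0.27, Notch genes of -0.12, BMP and SMAD genes near 0 and other bHLH genes of 0.12.

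Markers of other cell types differed between the libraries as well. Over all genes tested, 50.9% were higher by any amount, 3.8% at least 2-fold higher and 3.98% at least 2-fold lower. The sum of 11 neural markers was 194 FPKM in WT against 169 in the library labelled Eed-/- as deposited. After normalization the sums were 180 and 182, so this fall did not hold. Most of both sums came from Tubb3 (95.4 and 74.0) and Stmn2 (80.2 and 68.9). Of the 10 that passed the filter Ncam1 was past 2-fold (1.14 and 6.54), 6 were higher and 4 lower. For 10 early mesoderm markers the sums were 1.90 and 4.38, with Lhx1 and Osr1 at 0 in both. Kdr (0.158 and 1.59), which made up most of the rise, was past 2-fold, and 5 of the 6 that passed were higher. Of the 6, the intervals of T, Tbx6, Meox1 and the lower Mixl1 included 0, and Tbx6 passed through the library labelled Eed-/- alone. For 8 trophoblast markers the sums were 61.1 and 20.2, with Elf5 at 0 in both. Tfap2c (39.8 and 9.21), which made up most of the fall in the sum, and Krt18 were past 2-fold lower. Eomes was past 2-fold higher, and of the 7 that passed 2 were higher and 5 lower. For 10 primitive endoderm markers the sums were 95.6 and 146, with Sox17 at 0 in WT and Foxa2 at 0 in the other library. All 9 that passed were higher after normalization, with Lama1, Col4a1 and Nid1 past 2-fold. Of the 9, the intervals of Gata6 and Dab2 included 0, and Sox17 passed through the library labelled Eed-/- alone. Sparc, which held most of the WT sum, was lower as deposited (71.9 and 67.9). For 10 fibroblast markers the sums were 83.6 and 159, with Dcn at 0 in both. Of the 5 that passed the filter 2 were higher and 3 lower, with a median change of -0.36. Vim (24.9 and 118), which made up most of the rise in the sum, and Thy1 were past 2-fold higher, while Fn1 (55.9 and 33.5), Acta2 (1.10 and 0.065) and Col1a1 (0.460 and 0.137) were lower by more than counting error. For 9 skeletal muscle markers the sums were 26.6 and 12.5, with Actc1 at 0 in both. Des (11.2 and 2.42), past 2-fold lower, made up most of the fall, and of the 7 that passed 2 were higher and 5 lower. For 9 blood and endothelium markers the sums were 39.9 and 19.8, with Hbb-bh1 and Ptprc at 0 in both. Pecam1 (35.1 and 13.1) was past 2-fold lower and held most of both sums, while Cd34 had 1.01 and 2.85, and of the 6 that passed 4 were higher and 2 lower, with a median change of 0.035. In bulk RNA a change in the share of cells and a change in RNA per cell cannot be told apart, and the part of such cells in the differences of Hand1, Tal1, Twist1, Olig3 or Neurod1 was not tested.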

How the data were processed

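RNA of WT and Eed -/- mESCs was measured in 1 strand-specific, ribosomal RNA-depleted library each. Reads were aligned to mm9 by the authors using TopHat, and Cufflinks gave the deposited FPKM per gene symbol (TopHat2 2.0.11 and Cufflinks 2.2.1 in the submitters' processing notes). The annotation is not given in the sources used here. Samples of other assays were not analysed here.

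For 268 repeated symbols, none of them a member, values were added up. Libraries were quantile-normalized, changes taken as log2(FPKM + 1) differences, and genes with a mean of at least 0.1 used. Depth came from low values of 5103 genes with 1 transcript of at least 1000 bp in GENCODE vM1 (NCBIM37, the same assembly as mm9), less 180 bp. Of 840 and 951 such values, 78.9% and 79.5% lay within 0.1 of a whole number. Counting intervals are exact (Clopper-Pearson) at fixed total fragments, and their background used genes with a coding transcript of at least 400 bp. Copies elsewhere in the genome (80% of a transcript at 95% identity, minimap2 2.31) were found for 0 of 46 members. DMV genes of mESCs were taken by symbol from the gene list of the study, as annotation.

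The members, lists and named genes were chosen with earlier results of these data known. All members were named, and of other lists the genes past 2-fold, at most 6 a list, with some added for their role, and 1 gene of these lists is not reported here. Computations were tested on simulated data. The work was done in Python 3.11.15 (scipy 1.17.1, pandas 2.3.3, numpy 2.4.6, figures with matplotlib 3.10.9). Alternatives were other scalings, pseudocounts of 0.1 and 0.01, other filters, repeated symbols left out, a 3-fold threshold and changes relative to the chromosome median.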

Additional observations from a re-analysis of the deposited data

How the results depend on the processing

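Neurod1 and Id1 were the genes at least 2-fold lower, and Olig3 and Id4 those at least 2-fold higher, with median-ratio scaling, with repeated symbols left out and with no filter on low values. Without normalization, where the median of all genes was -0.09, 1 gene was higher (Olig3), as it was relative to the chromosome median. With the filter raised to a mean of 1 the higher gene was Id4, since Olig3 was no longer tested, and the median change of the 17 genes left was 0.045. With a 3-fold threshold 0 genes were higher and 0 lower, beside 152 and 137 of all genes. The pseudocount moved the counts most. With 0.1 there were 7 higher and 6 lower genes (25.0% and 21.4%, beside 11.4% and 12.0% of all genes) and a median of 0.39. With 0.01 there were 8 and 6 (28.6% and 21.4%, beside 12.9% and 13.4%), again with a median of 0.39. Of the added genes, Atoh1, Hand1, Hand2, Tal1, Twist1, Neurog1, Mesp1, Mesp2 and Myog had at most 27 fragments in either library, while Bhlhe40, with 108 and 40, was past 2-fold at -1.11 and -1.14. With no filter the median was 0, since most added genes are listed at 0. The signs of Tcf4, Tcf12 and Hes1 changed as deposited, those of Tcf4 and Hes1 relative to the chromosome and that of Hey1 with median-ratio scaling, all from changes near 0. No paired analysis was possible because each genotype has 1 library, and for the same reason no replicate could be left out. Depth limits what is known of genes under an FPKM of about 0.3.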

Other observations

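Of 57 other genes with a bHLH domain looked up, 56 had a value and 37 passed the filter, with a median change of 0.12. In the library labelled Eed-/-, 3 were past 2-fold higher, beside 3.8% of all genes, and 0 past 2-fold lower, beside 3.98%. By any amount 22 were higher and 15 lower. Bhlhe23, a close relative of Bhlhe22 and Olig genes that acts in retinal neurons, had 0.118 FPKM in the WT library against 2.25 in the one labelled Eed-/-, and a change of 1.57 (counting interval 1.09 to 1.76). Tcfl5, a factor of the male germ line, had 11.9 and 25.7, and a change of 1.23. Mitf, the regulator of melanocytes and of lysosomal genes, had 2.30 and 5.85, and a change of 1.16. Mycn, the most abundant MYC gene of the list, had 95.9 and 59.1, and a change of -0.45, and Myc had 13.1 and 9.08. Ascl2, a trophoblast gene, had 2.41 and 1.30.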
